A study of Homo sapiens with 10 samples.

Results

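Complexes III, IV and V of the respiratory chain contain 6 subunits that are translated from messages of the mitochondrial genome: MT-CYB of complex III, MT-CO1, MT-CO2 and MT-CO3 of complex IV, and MT-ATP6 and MT-ATP8 of complex V. These 6 genes were taken by symbol from a deposited table of 26134 gene identifiers, and all 6 passed the filter on low values. Their messages were compared between protrusions and cell bodies of MDA-MB-231, an established human triple-negative breast cancer cell line, with 5 libraries a group. A protrusion library and the library of its cell bodies carry the same number, 1 to 5. The cells of both groups were untreated, were trapped singly on a microfluidic chip, extended protrusions for 6 h and were fixed in 4% paraformaldehyde for 15 min before laser capture. Polyadenylated RNA was then amplified with SMART-Seq v4. No label gives the number of cells behind a library or says that libraries stem from separate cultures, so a p-value here speaks of library-to-library spread, which may be technical.

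Complex III passes electrons to cytochrome c, complex IV passes them on to oxygen, and both pump protons whose return through complex V drives ATP synthesis. Each complex also contains many subunits that are encoded in the nucleus, translated in the cytosol and imported. The mitochondrial messages are cut from long shared precursor transcripts, are polyadenylated and stay inside the organelle, so a capture from a protrusion holds them where it holds mitochondria.

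The 6 genes lie on the same strand of the mitochondrial chromosome. The sequences here are those of GENCODE 29 on GRCh38, and the build behind the deposited values is not given in the sources used here. MT-CO1 spans chrM:5904-7445, MT-CO2 chrM:7586-8269, MT-ATP8 chrM:8366-8572, MT-ATP6 chrM:8527-9207, MT-CO3 chrM:9207-9990 and MT-CYB chrM:14747-15887. MT-ATP8 and MT-ATP6 share 46 bases, read in different frames on the same message, and MT-ATP6 and MT-CO3 share 1 base. The whole MT-ATP8 reading frame and the first 90 bases of MT-ATP6 are shown because reads from the shared bases, in capitals, could be counted for either gene.
MT-ATP8: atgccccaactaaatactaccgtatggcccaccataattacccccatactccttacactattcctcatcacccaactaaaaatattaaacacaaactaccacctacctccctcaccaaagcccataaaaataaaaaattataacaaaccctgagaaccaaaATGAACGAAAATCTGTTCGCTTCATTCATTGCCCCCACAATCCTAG
MT-ATP6: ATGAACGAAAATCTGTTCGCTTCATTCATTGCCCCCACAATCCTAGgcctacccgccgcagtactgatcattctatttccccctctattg

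The last 30 bases of each gene are shown because the library protocol selects polyadenylated RNA and some mitochondrial reading frames are completed only by the tail. Capitals mark the final codon or, where the codon is not complete, its single base.
MT-CYB: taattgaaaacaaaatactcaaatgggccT
MT-CO1: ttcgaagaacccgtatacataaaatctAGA
MT-CO2: tttgaaatagggcccgtatttaccctaTAG
MT-CO3: tgtatgtctccatctattgatgagggtctT
MT-ATP6: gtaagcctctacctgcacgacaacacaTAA
MT-ATP8: tcgcttcattcattgcccccacaatccTAG
MT-CYB and MT-CO3 end in a bare T that polyadenylation turns into a stop codon. MT-CO2, MT-ATP6 and MT-ATP8 carry their stop codon within the annotated gene, and MT-CO1 ends in AGA. The last base of the MT-ATP6 stop codon is the base shared with MT-CO3. Whether the cut MT-ATP6 message keeps this base or needs the tail to complete its stop was not examined.

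No source names the unit of the values, which were read as scaled TPM from the size of their steps. Scaled TPM is TPM, an abundance corrected for gene length and library total, multiplied by 1 factor per library. On that reading levels are per length, but comparison between genes has limits. MT-ATP8 and MT-ATP6 lie on the same message, yet their log2 ratio was -1.19 in protrusions and -1.24 in cell bodies. Reads can also be shared with overlapping genes or nuclear copies. The deposited values summed to 737343 to 1103254 in protrusion libraries and 967421 to 1390253 in cell body libraries, and the read depth is unknown. Each result is therefore given as deposited and with each library rescaled to a common sum, the mean of the 10 sums. This rescaling moved the median log2 difference of all tested genes to 0.25, against -0.03 as deposited. RAB13, a message known from cell protrusions, stood at 197 to 297 in protrusions and 29.7 to 52.5 in cell bodies, and MALAT1, an RNA of the nucleus, at 0.288 to 25.2 and 47.5 to 143. Protrusion library 2 had the 25.2, and the other protrusions had at most 5.06. Of the markers of the line, VIM, a mesenchymal intermediate filament, was at 449.9 to 736 in protrusions and 546 to 713 in cell bodies, and CD44, an adhesion receptor, at 43.6 to 75.3 and 39.0 to 54.9. EPCAM, checked with these, was at 0.787 to 5.245 in protrusions and 1.543 to 4.18 in cell bodies. Of 6 listed blood cell markers 3 were found by symbol and none reached 1. They summed to at most 0.872 in protrusions and to 0 in cell bodies. Of 7 luminal markers 6 were found and 4 reached 1. They summed to 331 to 459 in protrusions and 231 to 386 in cell bodies. Of 4 keratinocyte markers KRT10 alone was found, at 69.6 to 85.7 in protrusions and 94.2 to 112 in cell bodies. The part of these markers in the results was not tested.

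The 6 messages were among the most abundant of the table. MT-CO2 ranked first or second in every library, and MT-CYB, the lowest of the 6, ranked 24 to 63 in protrusions and 31 to 68 in cell bodies. Together they made up 7.57%, 7.24%, 6.02%, 7.37% and 8.60% of protrusion libraries 1 to 5, against 8.90%, 9.34%, 7.78%, 9.17% and 8.20% of cell body libraries 1 to 5. The protrusion share was below that of the cell body with the same number in pairs 1 to 4 and above it in pair 5. Of the sum of all 13 mitochondrial messages the 6 held 64.2% to 74.5% in protrusions and 66.9% to 77.2% in cell bodies.

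Order by mean level was the same in protrusions and cell bodies: MT-CO2, MT-ATP6, MT-CO3, MT-ATP8, MT-CO1 and MT-CYB. It is an order of the values, with the limits on comparison between genes given above. On the common sum MT-CO2 averaged 22201 ± 3065 in protrusions and 26050 ± 2270 in cell bodies, and MT-CYB 5091 ± 959 and 4405 ± 997 (SD, n = 5 each). MT-CO2 was above MT-ATP6 in all 5 libraries of each group, although the ranges of both genes overlapped. MT-ATP6 and MT-CO3 could not be ordered, since MT-ATP6 was the higher in 3 of 5 protrusions and 2 of 5 cell bodies. MT-CO3 and MT-ATP8 were the only neighbours in this order whose ranges did not overlap, with 15139 ± 2469 against 7848 ± 768 in protrusions and 20547 ± 2630 against 9379 ± 2054 in cell bodies. MT-CO1 was above MT-CYB in every library, with overlapping ranges.

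**Figure D1:**
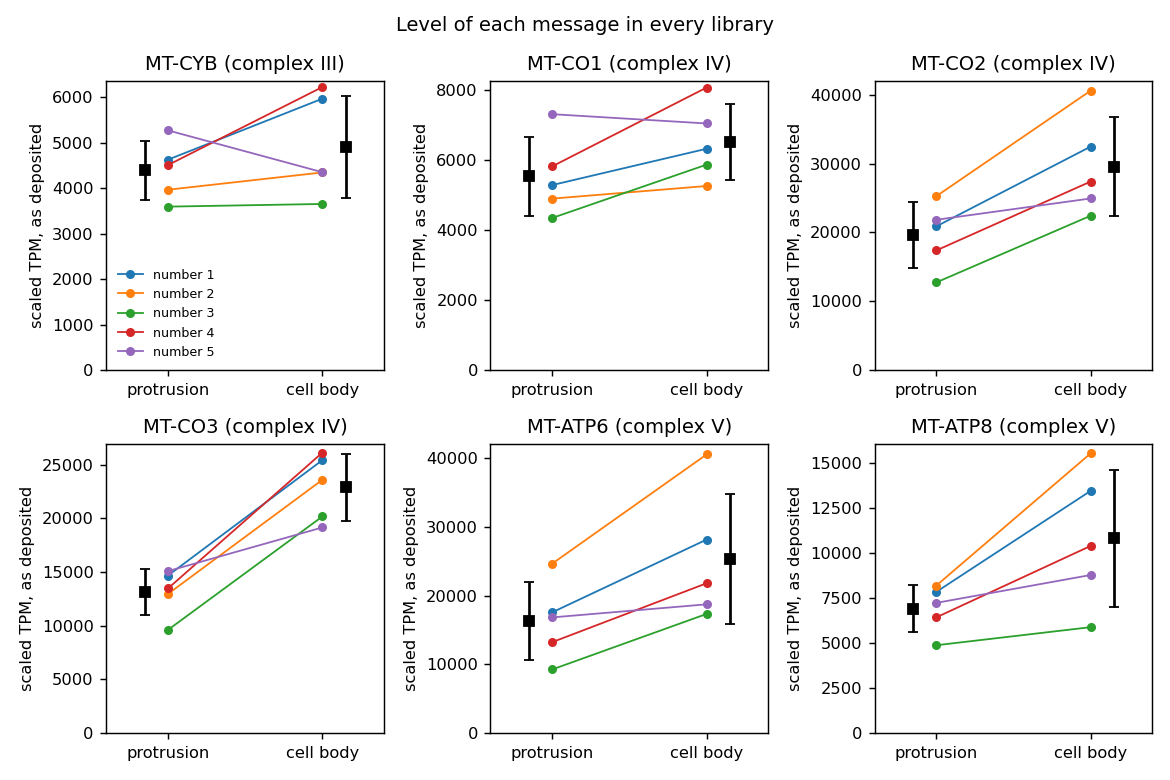
Level of each message in scaled TPM as deposited (y axis, from 0), protrusions at the left and cell bodies at the right of each panel. Each coloured line joins the 2 libraries of a number, and squares with bars are the mean and SD of 5 libraries. MT-CO3 is the only message whose groups do not overlap, with 9609 to 15085 in protrusions and 19153 to 26131 in cell bodies.

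Complex IV held the clearest difference. MT-CO3, the third core subunit of cytochrome c oxidase, which carries no metal centre, had 14673, 12963, 9609, 13471 and 15085 scaled TPM in protrusions 1 to 5, against 25430, 23595, 20178, 26131 and 19153 scaled TPM in cell bodies 1 to 5. Every protrusion was below every cell body, which held for 18.4% of the 10894 genes tested in this direction. MT-CO3 fell in protrusions by 0.81 ± 0.16 on the log2 scale (SE, adjusted p = 0.00128), with differences by pair of -1.07 to -0.34. After rescaling to a common sum MT-CO3 averaged 15139 ± 2469 in protrusions and 20547 ± 2630 in cell bodies (SD, n = 5 each). The groups then overlapped, at 11950 to 17941 in protrusions and 17261 to 24391 in cell bodies. None of the 6 messages was without overlap on this scale, where every protrusion was below every cell body for 14.6% of 10767 genes. MT-CO3 was still lower in all 5 pairs, as were 19.0% of genes, a log2 difference of -0.45 ± 0.11 (SE, adjusted p = 0.00811). It passed the threshold in each of the 20 fits that left out 1 library, 10 as deposited and 10 on the common sum, but not after quantile normalization (log2 difference -0.05, adjusted p = 0.858). In these bulk captures fewer mitochondria and less RNA per mitochondrion cannot be told apart, and neither these nor other causes were tested. Within the sum of the 13 mitochondrial messages, the share of MT-CO3 was also lower in all 5 pairs. The shares of MT-CO1 and MT-CYB were higher in all 5, as given with the shares below.

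MT-CO2, the subunit that takes electrons from cytochrome c, had 20890, 25270, 12750, 17394 and 21845 scaled TPM in protrusions 1 to 5, against 32472, 40597, 22436, 27396 and 24938 scaled TPM in cell bodies 1 to 5. It was lower in the protrusion of all 5 pairs, as were 26.4% of the genes tested, but protrusion 2 lay above cell bodies 3 and 5. MT-CO2 fell in protrusions by 0.60 ± 0.21 on the log2 scale (SE, adjusted p = 0.0485). This call lay at the threshold. It remained without protrusion 2 or cell body 3 (adjusted p = 0.0186 and 0.0330) and was lost without any of the other 8 libraries, with adjusted p up to 0.119. On the common sum the log2 difference was -0.24 ± 0.09 (SE, adjusted p = 0.0626), and after quantile normalization it was 0.029, of opposite sign. The median-of-ratios scaling gave -0.45 (adjusted p = 0.121).

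MT-CO1, the catalytic subunit that reduces oxygen, had 5277, 4891, 4339, 5810 and 7298 scaled TPM in protrusions 1 to 5, against 6312, 5251, 5860, 8057 and 7033 scaled TPM in cell bodies 1 to 5. Both groups overlapped over most of their range, and pair 5 ran opposite to the other 4. Its log2 difference was -0.24 ± 0.17 as deposited (SE, adjusted p = 0.342) and 0.12 ± 0.19 on the common sum (SE, adjusted p = 0.654), so no direction can be given.

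Complex III has a single mitochondrial message. MT-CYB, the cytochrome b that carries the b-type haems of the complex, had 4624, 3964, 3592, 4506 and 5267 scaled TPM in protrusions 1 to 5, against 5964, 4343, 3651, 6219 and 4348 scaled TPM in cell bodies 1 to 5. The groups overlapped, and pair 5 was again the exception to a lower protrusion. The log2 difference was -0.14 ± 0.17 as deposited (SE, adjusted p = 0.611) and 0.22 ± 0.16 on the common sum (SE, adjusted p = 0.311), where MT-CYB was higher in the protrusion of 4 of 5 pairs.

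Complex V gave 2 messages with wide spread. MT-ATP6, the subunit that forms the proton channel with the rotor, had 17555, 24645, 9239, 13216 and 16818 scaled TPM in protrusions 1 to 5, against 28146, 40538, 17320, 21786 and 18721 scaled TPM in cell bodies 1 to 5. Library 2 was the highest and library 3 the lowest of each group. The log2 difference was -0.64 ± 0.27 as deposited (SE, adjusted p = 0.108) and -0.28 ± 0.15 on the common sum (SE, adjusted p = 0.169), although all 5 pairs as deposited and 4 of 5 on the common sum were lower in protrusions. Without protrusion 2 the deposited values passed the threshold (adjusted p = 0.0288), and without both libraries numbered 2, a choice made after seeing the data, they did not (adjusted p = 0.0513).

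MT-ATP8, a small membrane subunit of the stator, had 7827, 8175, 4865, 6413 and 7215 scaled TPM in protrusions 1 to 5, against 13432, 15512, 5867, 10377 and 8762 scaled TPM in cell bodies 1 to 5. Cell body 3 was low and lay within the range of the protrusions. The log2 difference was -0.59 ± 0.24 as deposited (SE, adjusted p = 0.0927) and -0.23 ± 0.14 on the common sum (SE, adjusted p = 0.213), and without cell body 3 both passed (adjusted p = 0.0121 and 0.0119).

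As deposited, then, 2 of the 6 messages fell in protrusions and none rose, where 21.5% of the 10894 genes tested fell and 4.28% rose. On the common sum 1 of 6 fell and none rose, where 16.8% of 10767 genes fell and 14.2% rose. The median log2 difference of the 6 was -0.59 as deposited and -0.23 on the common sum, beside -0.03 and 0.25 over all genes tested.

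Fits with the library number as a block gave more calls. As deposited, MT-CO3 (adjusted p = 2.40e-05), MT-CO2 (9.94e-05), MT-ATP6 (1.66e-04), MT-ATP8 (4.68e-04) and MT-CO1 (0.0315) then fell in protrusions and MT-CYB did not pass (0.273). These 5 of 6 stand beside 25.4% of all genes tested that fell in the same fit, in which 13.0% rose. With the block on the common sum, MT-CO3 (4.66e-04), MT-CO2 (0.00762), MT-ATP6 (0.00842) and MT-ATP8 (0.0469) fell, MT-CYB rose by 0.22 on the log2 scale (0.0375) and MT-CO1 did not pass (0.129). In that fit 19.4% of all genes fell and 34.2% rose. After quantile normalization none of the 6 passed.

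**Figure D2:**
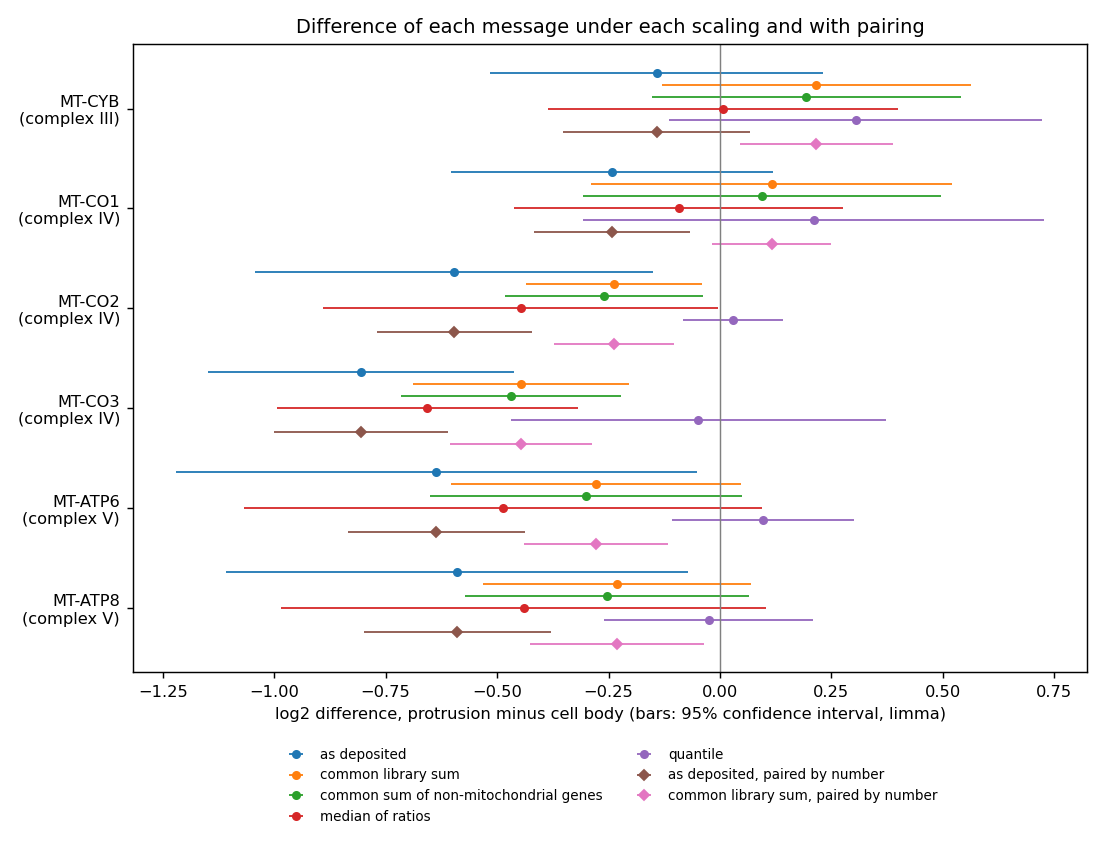
Log2 difference of each message, protrusion minus cell body (x axis, bars are the 95% confidence interval of limma), for 5 scalings without pairing (circles) and 2 fits paired by library number (diamonds). MT-CO3 and MT-ATP8 are below 0 in all 7, MT-CO2 and MT-ATP6 lie above 0 after quantile normalization, and MT-CO1 and MT-CYB change sign with the scaling.

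Shares within the 13 mitochondrial messages do not depend on the factor by which a library was scaled. MT-CO3 held 14.6%, 10.4%, 16.1%, 16.2% and 14.3% of this sum in protrusions 1 to 5, against 17.0%, 12.2%, 19.1%, 20.2% and 17.3% in cell bodies 1 to 5. Pair by pair its share was lower in all 5 protrusions by a nearly constant factor, a log2 ratio of -0.26 ± 0.04 (SD over 5 pairs, -0.32 to -0.22). The groups overlapped because the pairs differ from each other. An exact two-sided permutation test of the unpaired difference of -2.83 percentage points gave p = 0.143, and p = 0.333 after Benjamini-Hochberg adjustment over 14 tests, the 13 shares and the ratio of MT-ATP8 to MT-ATP6. An exact sign-flip test over the 5 pairs gave p = 0.0625, the smallest that 5 pairs allow. The unpaired difference was -1.84 points without protrusion 2, and -4.08 without cell body 2.

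MT-ATP6 behaved alike on a smaller scale. Its share was 16.9% ± 1.77 in protrusions and 18.0% ± 1.87 in cell bodies (SD, n = 5 each), and its log2 ratio by pair was -0.09 ± 0.01 (SD), from -0.11 to -0.08, lower in 5 of 5. Unpaired, this difference was smaller than the spread between libraries (exact permutation p = 0.373, adjusted p = 0.522). MT-CO2 held 20.8% ± 0.40 in protrusions and 21.5% ± 0.65 in cell bodies (SD, n = 5 each), lower in 4 of 5 pairs (exact permutation p = 0.0714, adjusted p = 0.333).

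MT-CYB and MT-CO1 went the other way in their pairs, as did MT-ND5 and MT-ND4L, messages of complex I, in 5 of 5 pairs. Shares of a library add up to a fixed whole, so a lower share of some messages raises that of others. MT-CYB held 4.85% ± 1.07 in protrusions and 3.69% ± 0.94 in cell bodies (SD, n = 5 each), higher in 5 of 5 pairs with log2 ratios of 0.17 to 0.80 (exact permutation p = 0.119, adjusted p = 0.333). MT-CO1 held 6.08% ± 1.44 and 5.02% ± 1.54 (SD, n = 5 each), higher in the protrusion of 5 of 5 pairs with log2 ratios of 0.12 to 0.54 (exact permutation p = 0.270, adjusted p = 0.472). MT-ATP8 had no common direction, at 7.42% ± 0.68 in protrusions and 7.70% ± 1.27 in cell bodies (SD, n = 5 each), with pair 3 higher and the other 4 lower in protrusions. In that pair cell body 3 had 5.56% MT-ATP8, where the other cell bodies had 7.93% to 8.99%.

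The log2 ratio of MT-ATP8 to MT-ATP6, neighbours on the same message, was -1.19 ± 0.25 in protrusions and -1.24 ± 0.23 in cell bodies (SD, n = 5 each), and this difference was within the spread between libraries (exact permutation p = 0.778, adjusted p = 0.838). Reads of the 46 shared bases shown above enter 1 gene or the other in an unknown way. None of the 14 tests passed the adjustment, and without adjustment MT-ND5, a complex I subunit, was the only one under 0.05. It held 0.525% ± 0.051 in protrusions and 0.333% ± 0.033 in cell bodies (SD, n = 5 each; exact permutation p = 0.00794, the smallest that 5 against 5 allow, adjusted p = 0.111). Over the 13 messages the log2 change of share had a Spearman correlation of 0.27 with gene length, and of 0.44 over the 12 without MT-ND6, the message of the other strand, a description over messages that share libraries and a precursor.

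**Figure D3:**
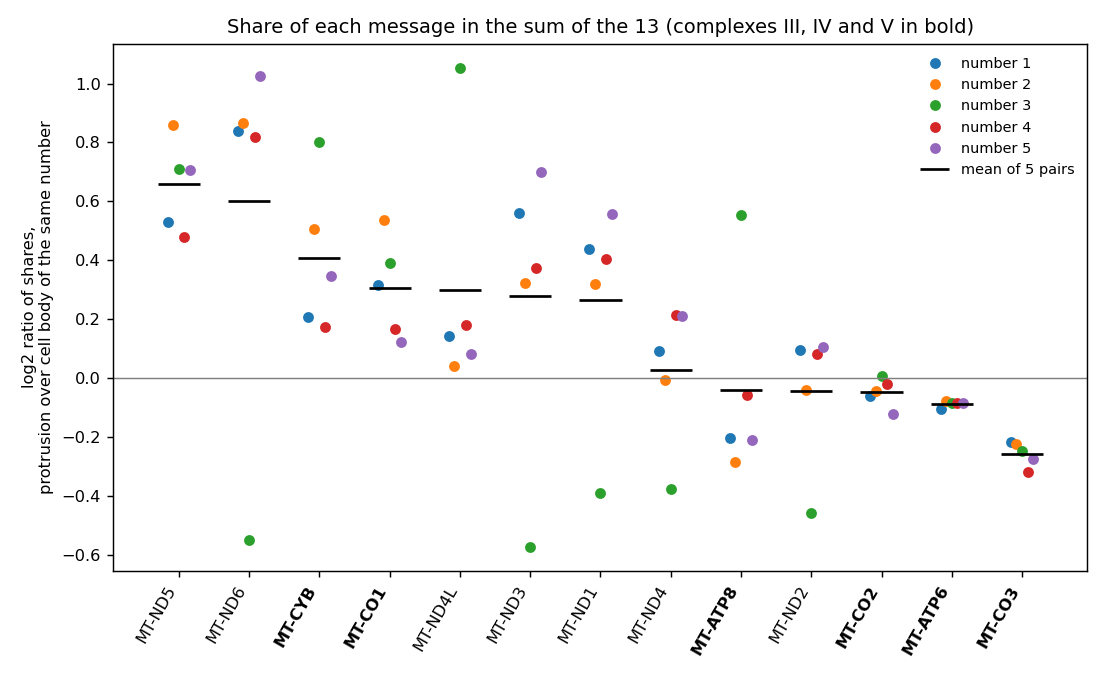
Log2 ratio of the share of each of the 13 messages in their own sum, protrusion over the cell body of the same number (y axis), with a point for each of the 5 pairs and a line at their mean. MT-CO3 (-0.32 to -0.22) and MT-ATP6 (-0.11 to -0.08) lie below 0 with little spread, MT-CYB and MT-CO1, like MT-ND5 and MT-ND4L, lie above 0 in every pair, and pair 3 stands apart for MT-ATP8.

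Of the other 7 messages, all subunits of complex I, none passed as deposited. MT-ND5 had a log2 difference of 0.11 (adjusted p = 0.763), MT-ND6 0.05 (0.942), MT-ND1 -0.28 (0.488), MT-ND2 -0.59 (0.121), MT-ND3 -0.27 (0.591), MT-ND4 -0.52 (0.240) and MT-ND4L -0.25 (0.683). After rescaling MT-ND5 alone passed (0.47, adjusted p = 0.0388). It remained past the threshold without protrusion 3 or cell body 2 and was lost without any of the other 8 libraries, with adjusted p up to 0.0975. The MT-ND5 call was also lost without mitochondrial genes in the sum (adjusted p = 0.0548). With the library number as a block MT-ND2 (adjusted p = 0.00554) and MT-ND4 (0.0119) fell as deposited, and neither passed on the common sum (0.152 and 0.313).

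Libraries of a group also differed from each other in a way the messages shared. After the group means were taken off on the common sum, MT-CYB correlated with MT-CO1 (r = 0.84) and MT-CO3 (r = 0.87), and MT-ATP6 with MT-CO2 (r = 0.90), over 10 libraries. Between these sets the correlations were low or negative, such as -0.54 for MT-ATP6 and MT-CO1. The libraries numbered 2 carried much of this: protrusion 2 and cell body 2 were below their group means by a log2 deviation of -0.47 and -0.59 for MT-CO1, and above them by 0.35 and 0.46 for MT-ATP6. Without these 2 libraries MT-ATP6 and MT-CO1 had r = 0.15 and MT-ATP6 and MT-CO3 had r = 0.68, against -0.24 with them. These values describe libraries that share amplification and scaling.

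Nuclear partners of the same complexes were examined next. As deposited, none of 10 tested identifiers of complex III passed in either direction, and on the common sum UQCRB, a small subunit gene of complex III, rose (0.41, adjusted p = 0.0286), a call lost without protrusion 1 or 5 or without cell body 1, 4 or 5, with adjusted p up to 0.0690. UQCRH, the hinge protein gene, stood at 1763 ± 236 in protrusions and 2196 ± 308 in cell bodies (SD, n = 5 each), CYC1, the cytochrome c1 gene, at 557 ± 98.0 and 432 ± 123, and the core protein genes UQCRC1 at 124 ± 42.4 and 84.3 ± 26.6 and UQCRC2 at 46.7 ± 12.2 and 36.4 ± 5.35. With the library number as a block, UQCRC1 (adjusted p = 6.09e-04) and CYC1 (0.00543) rose and UQCRH (0.00190) and 1 more gene fell as deposited, and on the common sum UQCRC1 (1.72e-05), CYC1 (4.51e-05) and UQCRC2 (0.00181) rose. Of all genes tested with the block, 13.0% rose and 25.4% fell as deposited, and 34.2% rose and 19.4% fell on the common sum. UQCR11 appears under 2 identifiers whose reads could be split.

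Of 13 tested genes of complex IV, COX6B2, an isoform known from testis, fell and none rose as deposited. COX6B2 was at 0.366 ± 0.579 in protrusions and 9.05 ± 3.20 in cell bodies (SD, n = 5 each), a log2 difference of -2.90 (adjusted p = 1.83e-06). After rescaling 8 of the 13 rose and COX6B2 fell, where 14.2% of all genes rose. The 8 became 3 without protrusion 1 or cell body 5, 4 without protrusion 5 or cell body 4, 5 without protrusion 3 or cell body 1, and 6 or 7 without any of the other 4 libraries. Those that rose included COX5B, a subunit near the matrix side (0.59, adjusted p = 6.63e-04), and COX7A2L, a supercomplex factor (0.67, adjusted p = 0.0481, lost without any of 8 of the 10 libraries). COX6B1, the widely expressed isoform of the same subunit as COX6B2, had 0.01 (adjusted p = 0.944). After quantile normalization 7 rose, where 17.8% of all genes did, and with median-of-ratios scaling none, where 10.5% did. The block gave 2 higher, COX5B (adjusted p = 0.0235) and COX7A2L (0.0481), and 3 lower, among them COX6B2 and COX6B1 (0.00163). In that fit 13.0% of all genes rose and 25.4% fell.

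Of 18 tested genes of complex V, ATP5G3, a gene of the rotor subunit c, fell as deposited (-0.39, adjusted p = 0.0490, lost without any of 8 of the 10 libraries) and none rose, where 21.5% of all genes fell. Without protrusion 2 there were 4 lower and without cell body 5 there were 2. After rescaling 4 rose and none fell, where 14.2% of all genes rose and 16.8% fell. These 4 became 7 without protrusion 2, and 2 without protrusion 3, 4 or 5 or cell body 1 or 5. Among them were ATP5D, the delta subunit (0.72, adjusted p = 0.0123), and ATP5A1, the catalytic head's alpha subunit (0.87, adjusted p = 0.0383, lost without any of 6 of the 10 libraries). ATP5G1, another gene of subunit c, had -0.46 as deposited (adjusted p = 0.0589) and -0.10 on the common sum (adjusted p = 0.454). With the block 3 of the 18 rose as deposited, ATP5D (adjusted p = 0.0157) and ATP5A1 (0.00286) among them. In that fit 9 fell, ATP5G3 (0.00120) and ATP5G1 (1.35e-04) among them. In the same fit 13.0% of all genes rose and 25.4% fell. The block on the common sum gave 6, 10 and 9 genes higher and 0, 1 and 0 lower in complexes III, IV and V. There 34.2% of all genes rose and 19.4% fell. The median log2 differences of complexes III, IV and V on the common sum were 0.29, 0.36 and 0.16, beside 0.25 for all genes tested.

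**Figure D4:**
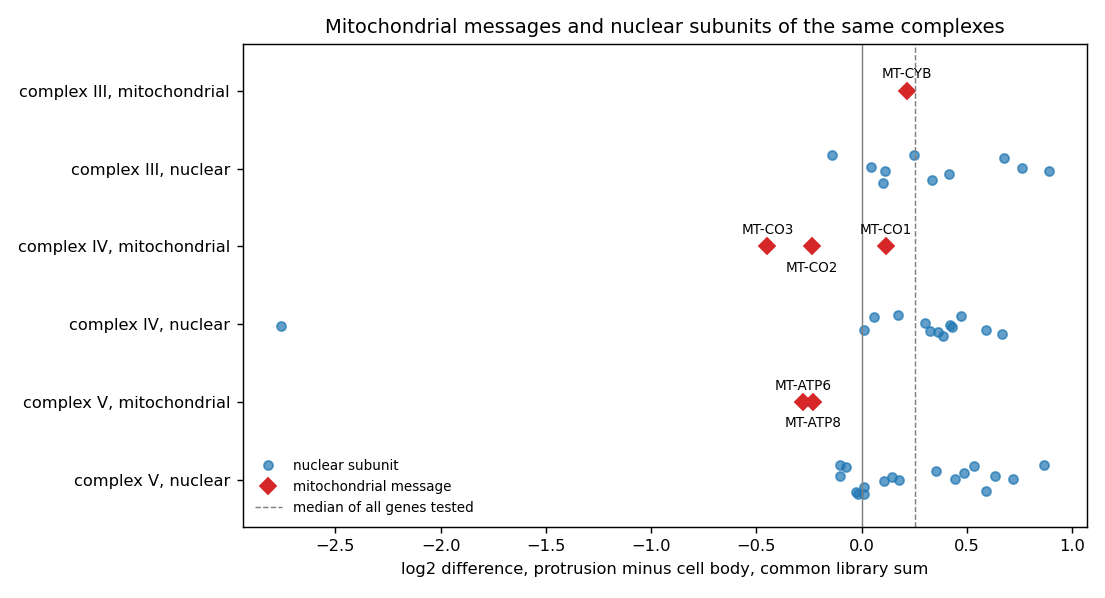
Log2 difference, protrusion minus cell body, on the common library sum (x axis) for the 6 mitochondrial messages (diamonds) and the tested nuclear subunits (circles) of the same complexes, 10, 13 and 18 for III, IV and V, with the median of all genes tested as a dashed line. MT-CO3 (-0.45), MT-ATP6 (-0.28), MT-CO2 (-0.24) and MT-ATP8 (-0.23) lie left of most nuclear subunits of their complexes, and the circle at -2.76 is COX6B2.

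Dividing each mitochondrial message by the median nuclear subunit of its own complex in the same library gives a value that a factor per library cannot move. This comparison was chosen after the data had been seen and is given with no test. MT-CO3 was 8.58, 6.27, 7.52, 9.48 and 9.36 times the complex IV median in protrusions 1 to 5, against 14.1, 12.5, 14.1, 15.6 and 13.0 times in cell bodies 1 to 5. MT-CO2 was 12.2, 12.2, 9.97, 12.2 and 13.6 times that median in protrusions 1 to 5, against 18.0, 21.5, 15.6, 16.4 and 16.9 times in cell bodies 1 to 5. Neither message overlapped between the groups, and of all genes divided by the same median 17.5% were lower without overlap.

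The other 4 messages overlapped. MT-CYB averaged 9.66 ± 1.39 times the complex III median in protrusions and 12.8 ± 2.13 times in cell bodies, and MT-CO1 3.49 ± 0.85 and 3.99 ± 0.87 times that of complex IV (SD, n = 5 each). MT-ATP6 averaged 17.1 ± 3.71 times the complex V median in protrusions and 23.3 ± 6.24 in cell bodies, and MT-ATP8 7.37 ± 0.77 and 9.92 ± 2.42 (SD, n = 5 each). All 6 ratios were lower in the protrusion of all 5 pairs. This includes MT-CYB and MT-CO1, whose own log2 differences on the common sum were 0.22 and 0.12. Of all 10767 genes divided in the same way, 35.8%, 25.1% and 21.9% were lower in all 5 pairs over the medians of complexes III, IV and V. The nuclear medians themselves were higher in protrusions on the common sum, at 529 ± 85.3 against 350 ± 76.6 for complex III, 1839 ± 77.4 against 1479 ± 65 for complex IV and 1065 ± 15.8 against 950 ± 60.5 for complex V (SD, n = 5 each). With the geometric mean of the nuclear subunits in place of the median, which COX6B2 enters with full weight, the log2 difference of MT-CO3 was -0.56, against -0.76 with the median, and that of MT-CO1 was 0.01, of opposite sign to its -0.20.

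**Figure D5:**
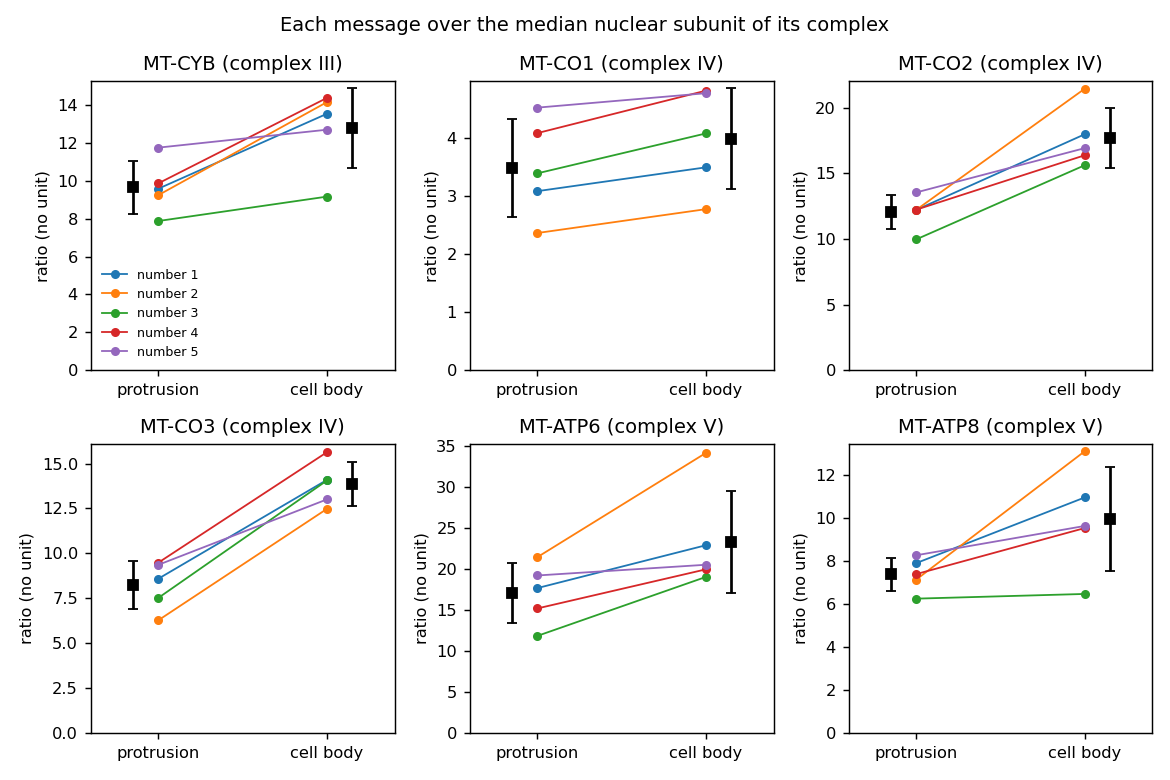
Each message divided by the median nuclear subunit of its complex in the same library (y axis, no unit, from 0), protrusions at the left and cell bodies at the right. Each coloured line joins the 2 libraries of a number, and squares with bars are the mean and SD of 5 libraries. Every line is lower at its protrusion end, and MT-CO2 (9.97 to 13.6 against 15.6 to 21.5) and MT-CO3 (6.27 to 9.48 against 12.5 to 15.6) do not overlap between groups.

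Assembly factors of the 3 complexes were tested as 34 genes, of which 2 rose and 2 fell as deposited, where 4.28% of all genes rose and 21.5% fell. SURF1, which acts early in building complex IV, stood at 30.9 ± 3.77 in protrusions and 16.7 ± 4.00 in cell bodies (SD, n = 5 each; log2 difference 0.87, adjusted p = 0.00369). APOPT1, another complex IV factor, stood at 36.5 ± 6.25 and 17.6 ± 5.23 (1.05, adjusted p = 0.00235), and both also rose under the common sum, quantile and median-of-ratios scalings. TTC19, which acts on complex III, fell by 0.82 on the log2 scale (adjusted p = 0.00654) and TMEM242, a complex V factor, by 0.67 (adjusted p = 0.0104), neither of which passed on the common sum (adjusted p = 0.135 and 0.244). After rescaling to the common sum 13 of the 34 rose and none fell, where 14.2% of all genes rose and 16.8% fell. The median log2 difference of the 34 was 0.57 beside 0.25 for all genes tested. The 13 became 19 without protrusion 2, 18 without cell body 3, 8 without cell body 2, and 7 without protrusion 4 or cell body 1. The block gave 12 higher and 2 lower as deposited, and 25 and 1 on the common sum, where TTC19 fell (adjusted p = 0.0407). With the block 13.0% of all genes rose and 25.4% fell as deposited, and 34.2% rose and 19.4% fell on the common sum.

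The machinery that copies, processes and translates the mitochondrial genome had 5 of 41 tested identifiers lower and none higher as deposited, a share below the 21.5% of all genes that fell. PNPT1, a mitochondrial RNA-degrading enzyme, stood at 11.5 ± 7.0 in protrusions and 134 ± 47.0 in cell bodies (SD, n = 5 each; log2 difference -3.51, adjusted p = 1.01e-06). PTCD3, a ribosomal protein of the organelle, stood at 4.19 ± 1.09 and 17.1 ± 3.03 (-1.81, adjusted p = 9.36e-06), and GFM1, an elongation factor, at 9.83 ± 3.26 and 24.1 ± 6.93 (-1.21, adjusted p = 0.00109). SLIRP, which with LRPPRC stabilises mitochondrial messages, stood at 4809 ± 1269 and 8059 ± 2067 (-0.75, adjusted p = 0.0139), and C12orf65, a release factor homologue, at 35.4 ± 10.2 and 65.6 ± 9.48 (-0.91, adjusted p = 0.00365). With the common sum PNPT1, PTCD3, GFM1 and SLIRP still fell and C12orf65 did not pass (adjusted p = 0.141), while 2 genes rose. Of all genes, 16.8% fell and 14.2% rose there. The 2 that rose became 11 without protrusion 2, 7 without cell body 3, and 1 without protrusion 1, 3 or 4 or cell body 1, 2 or 5. The block gave 5 higher and 6 lower as deposited, and 14 and 5 on the common sum, where C12orf65 fell (adjusted p = 0.0230). Beside these stand 13.0% of all genes higher and 25.4% lower as deposited, and 34.2% and 19.4% on the common sum. How reads of overlapping genes were assigned is not given in the sources used here.

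Nuclear copies of mitochondrial genes can take reads from the messages. The table held 24 copies of the 6 genes, of which 5 passed the filter and 18 never reached 1. MTATP6P1, a copy of MT-ATP6 on chromosome 1 that the table lists by a clone name, had the highest level of the copies, at 3086 ± 931 in protrusions and 4226 ± 1384 in cell bodies (SD, n = 5 each). Over the 681 bases aligned, copy and parent differ at 10 and share an identical run of 141. A stretch of 80 bases is shown for its cluster of differences, in capitals, where reads of copy and parent can be told apart. MT-ATP6 is at chrM:8647-8726 and MTATP6P1 at chr1:633816-633895, both on the plus strand.
MT-ATP6: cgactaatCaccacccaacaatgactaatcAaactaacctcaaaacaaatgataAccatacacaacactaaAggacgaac
MTATP6P1: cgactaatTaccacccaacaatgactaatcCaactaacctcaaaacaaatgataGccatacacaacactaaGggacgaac
MTATP6P1 made up 15.8%, 15.2%, 17.6%, 15.8% and 16.2% of the sum of copy and parent in protrusions 1 to 5, against 14.7%, 13.5%, 14.3%, 15.1% and 14.6% in cell bodies 1 to 5. Every protrusion was above every cell body (exact two-sided permutation p = 0.00794, the smallest possible, and exact sign-flip p = 0.0625 over the pairs). Only this copy, the one with the highest level, was tested in this way. The test was not planned and its p was not adjusted. Whether the reads counted for MTATP6P1 came from the copy or the parent was not tested. In the fit with the library number as a block MTATP6P1 fell as deposited (-0.45, adjusted p = 0.00222, against 0.211 without the block). With the copies added, MT-ATP6 had a log2 difference of -0.61 as deposited, against -0.64 alone. MTCO1P12 made up 1.39% ± 0.24 of its pair with MT-CO1 in protrusions and 0.99% ± 0.20 in cell bodies (SD, n = 5 each), and MTCO2P12 0.024% and 0.015% of its pair with MT-CO2. MTCO1P12 rose on the common sum with the block (0.61, adjusted p = 0.00390, against 0.104 without it).

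The 5 genes whose deviations from the group means were most like the mean deviation of the 6 messages, over 10 libraries and 3949 genes ranked on the common sum, were CKS2 (r = 0.84), S100A10 (0.83), IER3 (0.81), UBE2B (0.78) and GTF2A2 (0.78). CKS2 encodes a cofactor of cyclin-dependent kinases, S100A10 a partner of annexin A2, IER3 an immediate early protein, UBE2B a ubiquitin-conjugating enzyme and GTF2A2 a subunit of a general transcription factor. These are the highest of 3949 correlations over 10 libraries, so values of this size can arise by chance. Whether they exceed chance was not tested.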

How the data were processed

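The deposited table holds 10 columns of expression values, 1 per library, and the authors' log2 fold change with its p-value and false discovery rate, per the file headers. No source names the unit of the deposited signal: values below 2 were whole multiples of 1 step per library (100% within 0.00051), as TPM to 2 decimals times 1 factor would be. The mean factor was 0.891 in protrusions and 1.14 in cell bodies. Among the tools in the submitters' processing notes are StringTie 1.3, HISAT2, FastQC 0.10.1 and cutadapt 1.10. The sources used here do not give the build, annotation or strand setting. TPM keeps no depth, so no counting interval is given. 1 column of the table was not used.

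Genes at 1 or more in at least 5 libraries were fitted with limma 3.58.1 (R 4.3.3, mean-variance trend, no block) on log2(value + 1), a scale that understates changes of low genes, and adjusted over all genes by Benjamini-Hochberg at 0.05; every adjusted p of a gene is from limma. On data simulated for this comparison (10340 genes tested), 47.3% of genes changed by 1 on the log2 scale were called, 3.26% of those changed by 0.5 and 0.039% of unchanged ones. In that simulation 91 tested genes changed by 1 and 92 by 0.5, and every gene was drawn independently. Among the real values 25.8% of genes were called as deposited, so these rates need not hold there. As deposited, deviations of same-numbered libraries from their group means correlated at 0.236 to 0.577 in all 5 pairs. Differently numbered libraries correlated at -0.433 to 0.289, so the ranges overlap. Each of the 5 protrusions correlated best with the cell body of its own number. The numbers were therefore taken to pair the libraries, as the design text speaks of corresponding bodies. Shares were compared by exact permutation (252 divisions) and sign-flip tests (32 patterns). Names of 24361 identifiers were matched to GENCODE 29. Python 3.11.15 with numpy 2.4.6, pandas 2.3.3, scipy 1.17.1, Biopython 1.88 and matplotlib 3.10.9 did the rest. The 6 genes, the gene lists and the rule for named genes (the mitochondrial genes, up to 4 genes of each list by p with those called under both scalings, RAB13, MALAT1, 3 copies and 5 genes of like pattern) were chosen with earlier results of these data known, and UQCRB, LRPPRC, VIM, CD44, EPCAM and KRT10 are named outside that rule.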

Additional observations from a re-analysis of the deposited data

How the results depend on the processing

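MT-CO3 kept its sign in every alternative run and its call in all but quantile normalization, with log2 differences of -0.87 to -0.70 as deposited and -0.51 to -0.37 on the common sum when single libraries were left out. Of the 6 messages, 2 fell as deposited, 1 on the common sum, without mitochondrial genes in that sum, with median-of-ratios scaling, with a pseudocount of 0.1, with no filter and with copies added on the common sum, 0 after quantile normalization, 5 with the replicate block, 4 with the replicate block on the common sum (1 rose), 1 to 3 without single libraries and 1 without both libraries numbered 2 on the common sum. As deposited, leaving out single libraries gave -0.35 to -0.16 for MT-CO1 and -0.24 to -0.049 for MT-CYB. Signs turned for MT-CO2 (0.029) and MT-ATP6 (0.10) after quantile normalization; for MT-CO1 on the common sum (0.12, also with the replicate block or copies added; -0.031 to 0.23 without single libraries; 0.087 without both libraries numbered 2), without mitochondrial genes in the sum (0.094) and after quantile normalization (0.21); and for MT-CYB in the same settings (0.22, 0.22 and 0.22; 0.11 to 0.33; 0.22; 0.19; 0.30) and with median-of-ratios scaling (0.0072). The cause was not tested. The replicate block changed no call among the mitochondrial genes, their copies and the nuclear genes named by rule other than those given with their values.

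Genes higher in protrusions numbered 466 as deposited (256 to 658 without single libraries), 1530 on the common sum with or without copies added (866 to 2455 without single libraries, 1946 without both numbered 2), 1494, 1892 and 1118 without mitochondrial genes in the sum, after quantile and with median-of-ratios scaling, and 1412 and 3680 with the replicate block as deposited and on the common sum; 2340 were lower, and 3975 with no filter, where more genes were tested. Leaving out single libraries gave share differences, in percentage points, of -4.08 to -1.84 for MT-CO3, -1.76 to -0.32 for MT-ATP6, -0.85 to -0.43 for MT-CO2, -0.81 to 0.045 for MT-ATP8, 0.49 to 1.60 for MT-CO1 and 0.80 to 1.58 for MT-CYB, and a log2 MT-ATP8 to MT-ATP6 difference of -0.035 to 0.15. Against the geometric mean of nuclear subunits the log2 differences were -0.35 for MT-CO2, -0.56 for MT-CO3 and -0.13 for MT-CYB, against -0.55, -0.76 and -0.40 with the median. The unknown depth limits statements on low genes such as COX6B2.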

Other observations

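The ribosomal RNAs of the mitochondrion, which poly(A) selection captures in part, were listed under other symbols and matched by identifier. MT-RNR1, of the small subunit, stood at 586 ± 348 in protrusions and 449 ± 221 in cell bodies (SD, n = 5 each; log2 difference 0.27, adjusted p = 0.683), and was higher in the protrusion of 5 of 5 pairs on the common sum, where the block gave 0.63 (adjusted p = 0.00148). MT-RNR2, of the large subunit, stood at 1682 ± 1054 and 1553 ± 674 (-0.03, adjusted p = 0.966), with 0.33 on the common sum (adjusted p = 0.473). Their summed share of the library was 0.113% to 0.439% in protrusions and 0.115% to 0.242% in cell bodies.

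In the authors' deposited table the log2 fold changes of the 6 messages, cell body relative to protrusion, were positive, from 0.03 for MT-CYB to 0.44 for MT-CO3, with false discovery rates of 0.770 to 1 in the authors' deposited table. The grouping behind these values is not given in the sources used here.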
